A study of Homo sapiens with 6 samples.

Results

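The nuclear genes for the subunits of the mitochondrial respiratory chain were followed in HepG2 cells treated with GDF11 and in control HepG2 cells. They were taken by name as the protein-coding genes whose symbols start with NDUFA, NDUFB, NDUFC, NDUFS or NDUFV (complex I), SDHA to SDHD (complex II), UQCR or CYC1 (complex III), COX4 to COX8 (complex IV) or ATP5 (complex V), without assembly factors. This gave 91 of the 60240 genes in the table, 40 in complex I, 4 in complex II, 10 in complex III, 17 in complex IV and 20 in complex V. Of these, 86 lay far enough above the lowest value of the table to be tested.

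The respiratory chain sits in the inner mitochondrial membrane. Complex I takes electrons from NADH and complex II takes them from succinate, ubiquinone carries them to complex III, and cytochrome c carries them on to complex IV, which reduces oxygen. Complexes I, III and IV pump protons, and complex V, the ATP synthase, uses the proton gradient to make ATP. Most subunits are made from nuclear genes and imported, while a small group is encoded in mitochondrial DNA. In hepatocytes the chain reoxidises the NADH produced by fatty acid and amino acid breakdown.

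HepG2 is a human hepatocellular carcinoma line. The treated cells received 100 ng/ml of recombinant GDF11 (growth differentiation factor 11, a secreted ligand of the TGF-beta family) for 24 h, and the control cells received none. Each group has 3 libraries, which the labels call biological replicates. Nothing in the labels ties them to separate thaws or days, so p-values measure the spread between these libraries only, and all of them stand for 1 cell line.

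Values are log2 expression on the authors' variance-stabilised scale. Its lowest value, 5.52, stands for no reads, and differences near it are compressed. They carry no correction for gene length, so levels are compared between libraries and not between genes. All differences are GDF11 minus control unless another pair is named, with the standard error of limma, a linear model fitted over all 18723 genes that passed the filter. A gene was called when its Benjamini-Hochberg adjusted p over all these genes was under 0.05, and "fell" and "rose" are used only of called genes. In bulk RNA, fewer cells of a kind and less RNA per cell cannot be told apart.

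Depth, estimated from the step of 1 read among low values, was between 47900000 and 53400000 reads. All 8 hepatocyte markers that were looked for were detected, with ALB at 17.08 to 17.96, and 5 of them fell with GDF11 (62.5%), beside 10.8% of all tested genes. Of the 6 markers of other cells in the table, the leukocyte gene PTPRC was at the lowest value in all libraries. The fibroblast genes COL1A2 and DCN stayed within 5.52 to 5.88. The other 3 passed the filter: PDGFRB rose by 0.92, and 2 were not called, at -0.04 and -0.16. The part of these markers in the results was not tested. RNA integrity numbers were 9.6, 9.5 and 9.4 in GDF11 replicates 1, 2 and 3, against 9.8, 9.9 and 9.6 in control replicates 1, 2 and 3. Over these genes control replicate 3 was unlike the other controls, and it had the lowest integrity number among them, so its values are given separately throughout. It was picked out by earlier results of these data, so its difference from control replicates 1 and 2 is a description of 1 library with no test.

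The median difference was negative in each of the 5 complexes, and in complexes I, III, IV and V control replicate 3 was low with the GDF11 libraries. In complex II the median deviations from the gene means were -0.19, -0.13 and -0.31 in GDF11 replicates 1, 2 and 3, against 0.26, 0.35 and 0.03 in control replicates 1, 2 and 3. The subunit genes together held 0.945%, 1.02% and 0.907% of the back-transformed reads in GDF11 replicates 1, 2 and 3, against 1.40%, 1.34% and 1.06% in control replicates 1, 2 and 3. Thus the GDF11 libraries were below every control by this share, and control replicate 3 lay nearer to them than to the other controls. Of the 86 tested genes, 79 had a negative difference, with a median of -0.48 against 0.006 over all tested genes.

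By limma, 15 of the 86 genes fell (17.4%), beside 10.8% of all tested genes, and 0 rose, beside 11.7% of all tested genes. At an unadjusted p under 0.05, 45 were lower (52.3%), beside 18.7% of all tested genes, and 1, COX4I2, was higher (1.16%), beside 18.5%. The 15 were 6 of 40 genes of complex I, 0 of 4 of complex II, 2 of 10 of complex III, 1 of 13 of complex IV and 6 of 19 of complex V. The 3 GDF11 values lay below all 3 control values for 27 genes (31.4%), beside 19.6% of all tested genes, and above them for 3 genes (3.49%), beside 20.9%. Median differences by complex were -0.48, -0.43, -0.54, -0.52 and -0.47 for complexes I, II, III, IV and V. The call depends on control replicate 3 and on the integrity number: without that library 71 genes were called lower, beside 21.3% of all tested genes, and after adjustment for the integrity number 0 were, beside 3.85%. Leaving out GDF11 replicate 1 or 3, or control replicate 1 or 2, left 1 called gene (1.16%). Of all 18723 tested genes, 1001, 955, 1094 and 1189 were called lower in these fits, in that order. Leaving out GDF11 replicate 2 left 5 called genes (5.81%), beside 1144 of all 18723 tested genes. In every omission but that of control replicate 3, subunit genes were thus called lower less often than all tested genes.

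**Figure D1:**
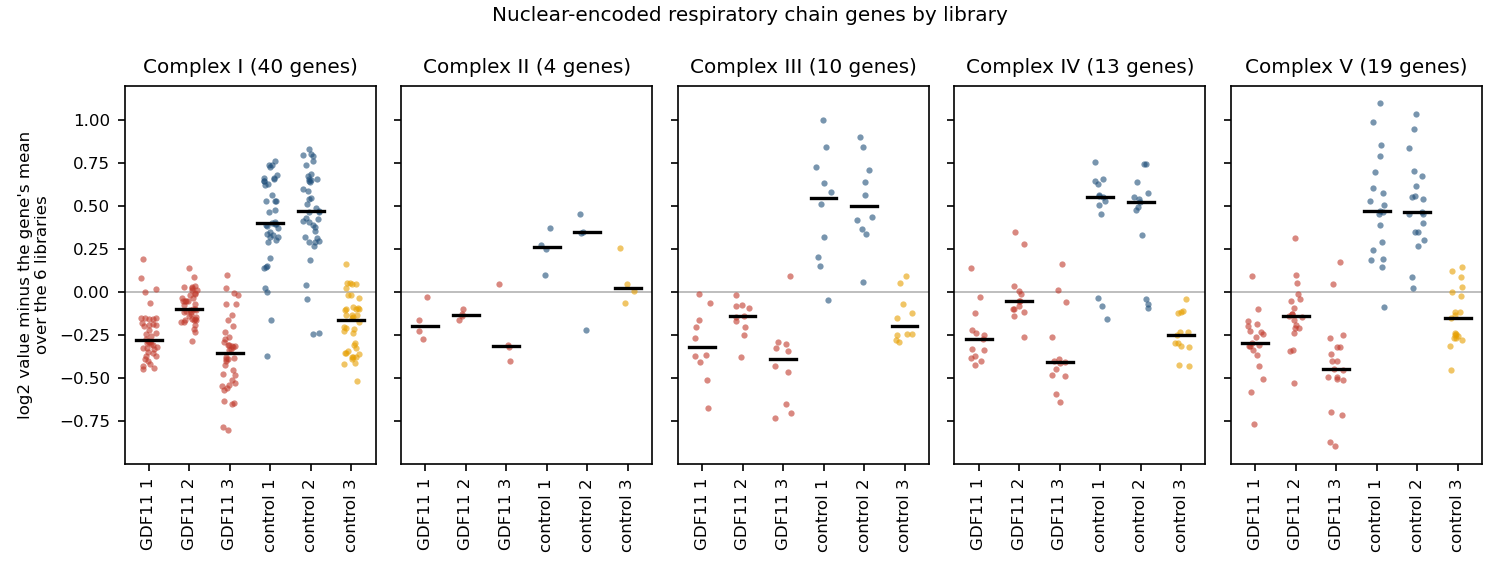
Each point is 1 tested gene in 1 library, as its log2 value minus its mean over the 6 libraries, with GDF11 replicates in red, control replicates 1 and 2 in blue and control replicate 3 in yellow; the bar is the median of the complex in that library. The medians of complex I are -0.28, -0.10 and -0.36 in GDF11 replicates 1, 2 and 3 and 0.40, 0.47 and -0.16 in control replicates 1, 2 and 3, and complexes III, IV and V have the same shape.

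Control replicate 3 was below both other controls for 79 of the 86 genes (91.9%), beside 39.2% of all tested genes. Its difference from the mean of control replicates 1 and 2 had a median of -0.69, against 0.01 over all tested genes. By complex these medians were -0.62, -0.33, -0.79, -0.83 and -0.72 for complexes I, II, III, IV and V, so complex II was nearest to the other controls. A difference of -0.5 or lower was found for 53 genes (61.6%), beside 13.5% of all tested genes, and these were 26 in complex I, 0 in complex II, 6 in complex III, 10 in complex IV and 11 in complex V.

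Set against the GDF11 libraries, control replicate 3 lay inside their range for 45 of the 86 genes, above it for 31 and below it for 10. Over all 18723 tested genes it lay inside for 5753, above for 6539 and below for 6431. The share above was thus near that of all tested genes. All 4 complex II genes had control replicate 3 above the GDF11 range, as did 10 of 19 complex V genes, whereas in complex IV it was above for 1 of 13, inside for 9 and below for 3. The median difference of the GDF11 mean from control replicate 3 was -0.04 in complex I, -0.27 in complex II, -0.11 in complex III, 0.04 in complex IV and -0.19 in complex V. From the mean of control replicates 1 and 2 the GDF11 mean differed by medians of -0.67, -0.55, -0.81, -0.80 and -0.76 in complexes I to V. All 3 GDF11 libraries were below both of these controls for 74 of the 86 genes (86.0%), beside 31.4% of all tested genes.

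**Figure D2:**
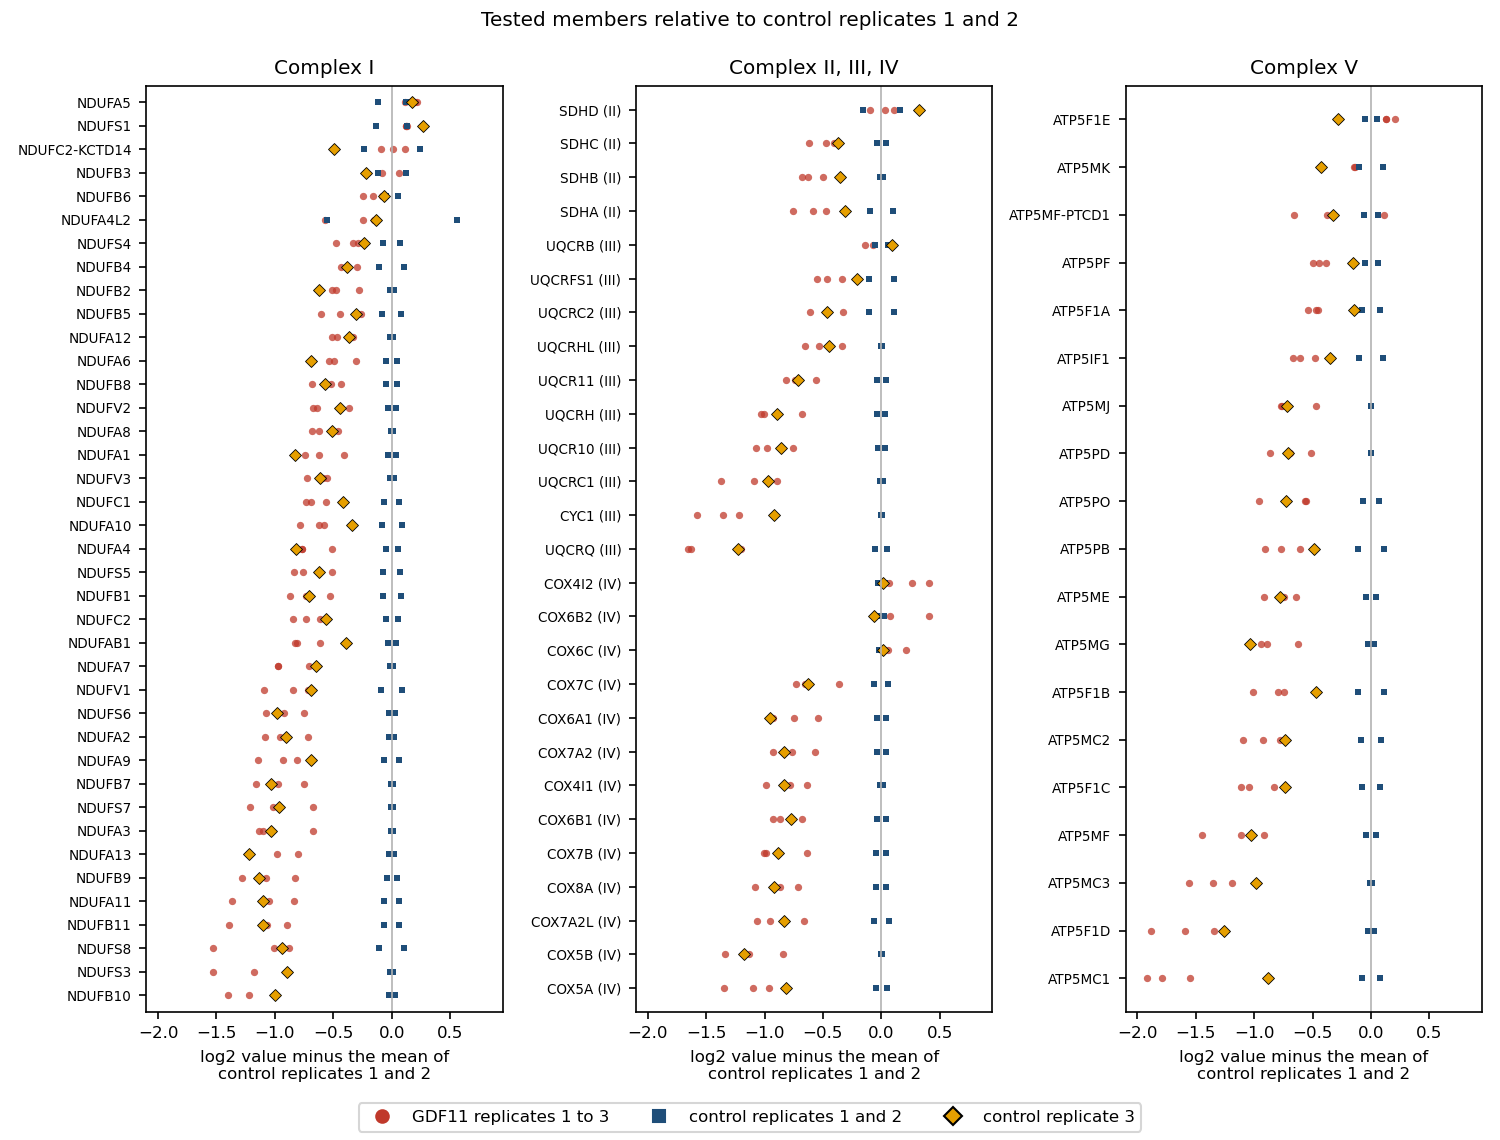
Rows are tested genes (1 gene of complex I is not drawn), and each symbol is its log2 value in 1 library minus the mean of control replicates 1 and 2; rows run from the least to the most lowered GDF11 mean within each complex. Red circles (GDF11) lie left of 0 in most rows. The yellow diamond (control replicate 3) also lies left of 0 in most rows, but at 0.27 for NDUFS1 and 0.32 for SDHD. Over the 86 tested genes, control replicate 3 was inside the GDF11 range for 45, above it for 31 and below it for 10. ATP5MC1, at the bottom of complex V, shows a wide gap between the diamond and the circles.

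Many subunit promoters are known to bind NRF1, GABP (an ETS factor) and YY1, so upstream sequence is shown for 4 genes that differ in such motifs. NDUFA9 and ATP5F1C had nearly the same difference, -0.73 and -0.75, while ATP5MC1 had -1.46 and SDHD -0.09. The windows are RefSeq's, build GRCh38.p14, from 250 bases before to 50 bases after the gene start, written 5′ to 3′ along the gene. Capitals mark matches on either strand to GCGCANGCG (NRF1), CCGGAAG (GABP/ETS) or AAGATGGC (YY1). NDUFA9 lies at chr12:4648864-4649163, ATP5F1C at chr10:7787927-7788226, ATP5MC1 at chr17:48892537-48892836 and SDHD at chr11:112086623-112086922, all on the plus strand.
NDUFA9: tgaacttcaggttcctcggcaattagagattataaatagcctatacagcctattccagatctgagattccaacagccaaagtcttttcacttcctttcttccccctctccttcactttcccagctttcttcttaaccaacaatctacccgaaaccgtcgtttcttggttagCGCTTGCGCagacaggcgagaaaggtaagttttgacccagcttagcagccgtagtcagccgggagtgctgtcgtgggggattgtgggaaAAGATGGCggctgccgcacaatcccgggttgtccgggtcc
ATP5F1C: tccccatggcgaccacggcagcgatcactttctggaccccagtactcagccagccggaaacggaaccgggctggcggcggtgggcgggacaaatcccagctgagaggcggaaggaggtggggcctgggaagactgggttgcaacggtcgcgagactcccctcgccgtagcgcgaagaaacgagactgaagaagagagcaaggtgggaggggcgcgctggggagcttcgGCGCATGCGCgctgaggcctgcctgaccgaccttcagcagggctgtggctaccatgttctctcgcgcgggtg
ATP5MC1: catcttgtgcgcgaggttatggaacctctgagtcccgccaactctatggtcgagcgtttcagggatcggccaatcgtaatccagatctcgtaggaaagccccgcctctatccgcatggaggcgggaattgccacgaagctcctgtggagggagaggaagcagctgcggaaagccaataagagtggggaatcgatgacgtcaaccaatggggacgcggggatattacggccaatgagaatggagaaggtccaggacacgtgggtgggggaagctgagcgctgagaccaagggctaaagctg
SDHD: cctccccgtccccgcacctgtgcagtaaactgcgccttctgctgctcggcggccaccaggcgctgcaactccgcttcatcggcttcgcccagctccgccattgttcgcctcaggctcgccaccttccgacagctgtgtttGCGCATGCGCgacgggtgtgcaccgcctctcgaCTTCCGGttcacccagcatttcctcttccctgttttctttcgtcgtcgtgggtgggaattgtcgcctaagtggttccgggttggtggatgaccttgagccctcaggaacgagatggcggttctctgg

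NDUFA9 holds 1 NRF1 and 1 YY1 match, ATP5F1C 2 overlapping NRF1 matches on opposite strands, SDHD 2 such NRF1 matches and 1 GABP/ETS match, and ATP5MC1 none of the 3 motifs. Among the 71 of 91 subunit genes with a RefSeq window, the NRF1 motif was in 23 (32.4%), against 8.05% of all 27305 promoters of that length. The GABP/ETS motif was in 20 (28.2%), against 10.7%, and the YY1 motif in 11 (15.5%), against 3.03%. No motif is contained in another, and 1 promoter may hold several. Of the 15 called subunit genes, 11 had a window. CYC1, ATP5F1B, ATP5F1D and ATP5MC3 had none, so the motif counts and medians leave these called genes out. The 22 tested genes with the NRF1 motif had a median difference of -0.50 and the 46 without it -0.48. These medians were -0.49 for the 20 with the GABP/ETS motif and -0.49 for the 48 without it, and -0.60 for the 11 with the YY1 motif and -0.48 for the 57 without it. For control replicate 3 minus the mean of control replicates 1 and 2, the medians with and without the motif were -0.72 and -0.69 for NRF1, -0.83 and -0.64 for GABP/ETS, and -0.69 and -0.72 for YY1. None of these differences was tested. A match is a description of letters in this window and not a binding site.

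Complex I has 7 catalytic core subunits made in the nucleus, which carry the flavin and the iron-sulfur clusters, and accessory subunits around them. The core genes had a median difference of -0.65 and the 33 others -0.47. NDUFS3, a core subunit of the arm that leads to ubiquinone, fell. It had values of 11.72, 12.012 and 11.37 in GDF11 replicates 1, 2 and 3, against 12.89, 12.91 and 12.002 in control replicates 1, 2 and 3. GDF11 replicate 2 therefore reached control replicate 3, while all GDF11 libraries were below the other controls. The difference was -0.90 ± 0.27 (SE, n = 3 each; limma adjusted p = 0.043).

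NDUFV1, which binds the flavin that accepts electrons from NADH, did not pass the test, at -0.66 ± 0.22 (limma adjusted p = 0.061). Its 3 GDF11 values lay below the 3 control values. NDUFS1, the iron-sulfur subunit next to the flavin, had a different pattern: 13.08, 13.07 and 13.09 in GDF11 replicates 1, 2 and 3, against 13.09, 12.82 and 13.22 in control replicates 1, 2 and 3. Its groups overlapped and control replicate 3 was the highest library, 0.27 above the mean of the other controls.

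Among accessory subunits, NDUFAB1, the mitochondrial acyl carrier protein, fell by 0.62 on the log2 scale (limma adjusted p = 0.027). Its values were 12.06, 12.25 and 12.04 in GDF11 replicates 1, 2 and 3, against 12.90, 12.83 and 12.48 in control replicates 1, 2 and 3. The groups did not overlap, and control replicate 3 lay between the other controls and the GDF11 libraries. NDUFA9, an accessory subunit beside the ubiquinone site whose promoter is printed above, had 11.56, 11.68 and 11.35 in GDF11 replicates 1, 2 and 3, against 12.43, 12.55 and 11.80 in control replicates 1, 2 and 3, a difference of -0.73 ± 0.21 (SE, n = 3 each; limma adjusted p = 0.040). NDUFA10 fell by 0.55 (limma adjusted p = 0.040), and NDUFB10 and NDUFA7 by 0.87 and 0.67 (limma adjusted p = 0.048 and 0.046).

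NDUFA13, an accessory subunit also known as GRIM-19, had the lowest control replicate 3 of complex I relative to the other controls. It stood at 12.67 in control replicate 3, against 13.91 and 13.87 in control replicates 1 and 2, and the GDF11 libraries had 12.91, 13.08 and 12.66. The untreated library was thus at the level of the lowest GDF11 library, and the gene was not called (-0.60 ± 0.32, limma adjusted p = 0.20). NDUFA4, now known to be a subunit of complex IV in spite of its symbol, differed by -0.41 ± 0.23 (limma adjusted p = 0.23) and its paralogue NDUFA4L2 by -0.28 ± 0.27 (limma adjusted p = 0.48). NDUFA4L2 ranged from 8.68 to 9.10 in GDF11 libraries and from 8.69 to 9.81 in controls, so the ranges overlapped. Of the complex I genes, 3 had a positive difference, NDUFA5 at 0.12, NDUFS1 at 0.04 and the readthrough NDUFC2-KCTD14 at 0.18, none of them called, and reads of that readthrough cannot be separated with certainty from those of NDUFC2.

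Complex II, succinate dehydrogenase, is made wholly from nuclear genes and had no called member by limma, though 3 of the 4 were lower at an unadjusted p under 0.05. SDHA, the flavoprotein that oxidises succinate, had 13.04, 13.14 and 12.86 in GDF11 replicates 1, 2 and 3, against 13.52, 13.72 and 13.31 in control replicates 1, 2 and 3 (-0.50 ± 0.16, limma adjusted p = 0.058). SDHB, the iron-sulfur subunit, differed by -0.48 ± 0.16 (limma adjusted p = 0.055) and SDHC, a membrane anchor, by -0.38 ± 0.16 (limma adjusted p = 0.13). In these 3 genes every GDF11 library was below every control, control replicate 3 included. SDHD, the other membrane anchor, did not follow: it had 11.19, 11.06 and 11.27 in GDF11 replicates 1, 2 and 3, against 11.32, 11.00 and 11.48 in control replicates 1, 2 and 3, with control replicate 3 the highest of the 6.

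In complex III, CYC1, the cytochrome c1 that hands electrons to cytochrome c, had 12.60, 12.73 and 12.37 in GDF11 replicates 1, 2 and 3, against 13.95, 13.95 and 13.03 in control replicates 1, 2 and 3. Its groups did not overlap, and the difference was -1.08 ± 0.25 (SE, n = 3 each; limma adjusted p = 0.017), or 0.453 times the control mean in back-transformed reads. UQCRQ, a small membrane subunit, had 11.70, 12.13 and 11.67 in GDF11 replicates 1, 2 and 3, against 13.38, 13.28 and 12.10 in control replicates 1, 2 and 3. It fell by 1.08 (limma adjusted p = 0.041), and control replicate 3 lay inside the GDF11 range, 1.23 below the mean of the other controls. The core subunits UQCRC1 and UQCRC2 differed by -0.79 ± 0.27 and -0.32 ± 0.19 (limma adjusted p = 0.070 and 0.25), and UQCRFS1, the Rieske iron-sulfur protein, by -0.38 ± 0.15 (limma adjusted p = 0.10). UQCRB, a small subunit, was nearly level over the libraries, at 11.53 to 11.77 with GDF11 and 11.62 to 11.77 in controls. UQCRH and its near copy UQCRHL, which can share reads, differed by -0.61 and -0.36 and were not called.

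COX5A, a subunit of complex IV on the matrix side, was its only called gene. It had 12.57, 12.71 and 12.33 in GDF11 replicates 1, 2 and 3, against 13.63, 13.72 and 12.86 in control replicates 1, 2 and 3, with groups apart (-0.86 ± 0.24, limma adjusted p = 0.031). COX5B showed the place of control replicate 3 in the rest of the complex: it stood at 13.12 there, against 14.30 and 14.29 in control replicates 1 and 2, and at 13.16, 13.45 and 12.95 with GDF11. The 3 ubiquitous isoforms COX4I1, COX6A1 and COX7A2 differed by -0.52, -0.42 and -0.48 and COX6B1 by -0.57, none of them called (limma adjusted p from 0.10 to 0.28). For COX6A1 control replicate 3 was below every GDF11 library.

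The tissue-restricted isoforms of complex IV were at or near the lowest value. COX6A2 and COX7A1, known from muscle, and COX7B2 were at it in all 6 libraries, and COX8C was above it only in GDF11 replicate 2, at 5.73. COX4I2, known from lung, had 6.18, 6.33 and 5.99 in GDF11 replicates 1, 2 and 3, against 5.89, 5.95 and 5.93 in control replicates 1, 2 and 3. Its groups did not overlap, but the gene was not called (0.24 ± 0.10, limma adjusted p = 0.13). COX6B2, known from testis, was also not called, at 0.16 ± 0.13. COX6C was the other gene of the complex with GDF11 above control, by 0.09.

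Complex V had the gene with the largest difference, ATP5MC1. It is 1 of 3 genes, with ATP5MC2 and ATP5MC3, that encode the same mature c subunit of the proton-driven ring behind different import sequences. ATP5MC1 had 11.21, 11.45 and 11.08 in GDF11 replicates 1, 2 and 3, against 13.08, 12.92 and 12.12 in control replicates 1, 2 and 3. The groups were apart and control replicate 3 was 0.87 above the GDF11 mean, the widest such gap of all 86 genes. It fell by 1.46 ± 0.25 (SE, n = 3 each; limma adjusted p = 0.0037), to 0.343 times the control mean in back-transformed reads. It was called on leaving out each of the 6 libraries in turn, and it was the only subunit gene of which this was true. For the other 10 called subunit genes named by rule, the adjusted p by limma was between 0.052 and 0.16 in the omissions that ended their calls.

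ATP5MC3 had 13.91, 14.07 and 13.70 in GDF11 replicates 1, 2 and 3, against 15.27, 15.25 and 14.28 in control replicates 1, 2 and 3 (-1.04 ± 0.27, limma adjusted p = 0.025). ATP5MC2 differed by -0.69 ± 0.22 and was not called (limma adjusted p = 0.056). For all 3 ring genes each GDF11 library was below each control.

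The catalytic F1 head is built from subunits alpha to epsilon. ATP5F1B, the beta subunit that makes ATP, had 15.27, 15.33 and 15.06 in GDF11 replicates 1, 2 and 3, against 15.96, 16.19 and 15.60 in control replicates 1, 2 and 3 (-0.69 ± 0.20, limma adjusted p = 0.035). ATP5F1D, the delta subunit, had 11.89, 12.13 and 11.60 in GDF11 replicates 1, 2 and 3, against 13.46, 13.50 and 12.23 in control replicates 1, 2 and 3 (-1.19 ± 0.33, limma adjusted p = 0.031). Here control replicate 3 lay 1.25 below the mean of the other controls, the largest such gap of all 86 genes. ATP5F1C, the gamma subunit, and ATP5PB, the b subunit of the stalk, fell by 0.75 and 0.60 (limma adjusted p = 0.040 and 0.049). ATP5F1A, the alpha subunit, did not pass (-0.44 ± 0.15, limma adjusted p = 0.066), and its control replicate 3, at 14.92, was close to control replicates 1 and 2, at 14.98 and 15.15. ATP5F1E, the epsilon subunit, went the other way with 13.22, 13.23 and 13.30 in GDF11 libraries, against 13.04, 13.15 and 12.82 in controls (0.25 ± 0.15, limma adjusted p = 0.26). ATP5IF1, the protein that inhibits ATP hydrolysis by the synthase, differed by -0.47 ± 0.16 (limma adjusted p = 0.068). ATP5MGL, a near copy of ATP5MG, was too close to the lowest value to be tested, at 5.73 to 5.86.

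Without control replicate 3 the calls were 33 of 40 genes in complex I, 3 of 4 in complex II, 9 of 10 in complex III, 10 of 13 in complex IV and 16 of 19 in complex V, all of them lower, and all 15 calls made with 6 libraries were among them. SDHA, SDHB and SDHC then differed by -0.61, -0.60 and -0.50, UQCRC1 by -1.12 and COX5B by -1.11. NDUFS1, SDHD, UQCRB, COX4I2, COX6B2 and ATP5F1E were among the 15 genes still not called. Over all tested genes, 21.3% were called lower in the same fit. All these counts rest on 2 controls, and the data do not show which controls are typical. Control replicate 3 was picked out by earlier results of these data and was low over most of these genes. Higher counts without it follow from that choice and are no separate support.

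After adjustment for the integrity number, medians were 0.0012, -0.21, -0.03, 0.12 and -0.09 for complexes I, II, III, IV and V, and 0 genes were called in either direction. At an unadjusted p under 0.05, 1 was lower, ATP5MC1, and 2 were higher, ATP5F1E and NDUFC2-KCTD14, beside 11.0% and 12.7% of all tested genes, and the lowest adjusted p was 0.073. ATP5MC1 kept a difference of -0.85 ± 0.28 (limma adjusted p = 0.11). The integrity number and treatment moved together, since no GDF11 library exceeded 9.6 and no control was under it. Both at 9.6, GDF11 replicate 1 and control replicate 3 had median deviations of -0.27 and -0.16 from the gene means over the 86 genes. The part of RNA integrity in the result cannot be told apart from that of treatment.

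**Figure D3:**
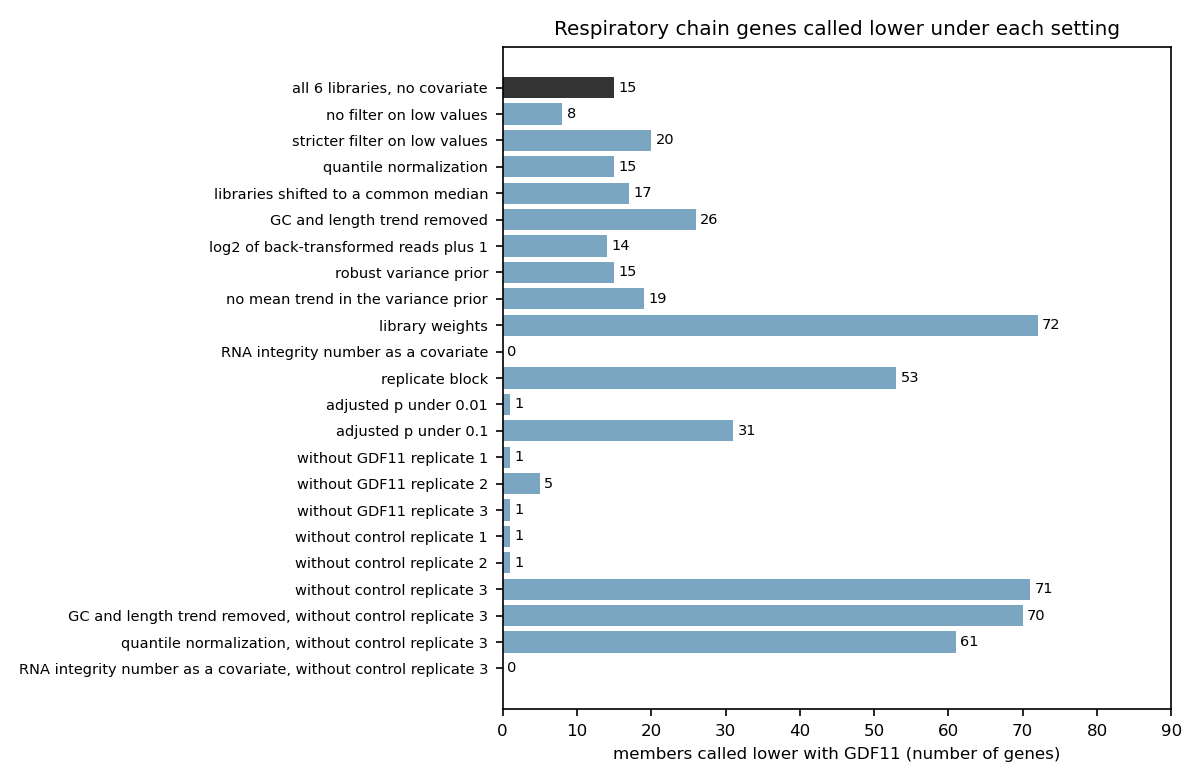
Bars give the number of the tested subunit genes called lower by limma under each setting, with the black bar for all 6 libraries and no covariate. It reads 15 with all libraries, 71 without control replicate 3, 72 with weights that let noisy libraries count less (24.3% of all tested genes were called lower there), and 0 after adjustment for RNA integrity.

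Subunit transcripts are short, with a median length of 761 bases against 2648 over all tested genes, and have a median GC content of 48.5% against 49.1%. Over the 51 genes under 1000 bases, control replicate 3 minus the mean of control replicates 1 and 2 had a median of -0.74, and over the 10 of 3000 bases and more, -0.24. For all tested genes of the same lengths these medians were -0.12 and 0.18. By GC content the medians were -0.38 under 45% and -0.94 at 55% and over, against 0.18 and -0.26 for all tested genes. The median difference between GDF11 and all controls, control replicate 3 included, was -0.50 and -0.36 by the same length classes. By the same GC classes it was -0.37 and -0.65. For all tested genes these medians were -0.06 and 0.10 by length, and 0.06 and -0.10 by GC. Against the mean of control replicates 1 and 2 alone, the GDF11 mean of subunit genes differed by medians of -0.75 and -0.44 by length. By GC these were -0.45 and -0.97. After the trend on length and GC was removed from every library, control replicate 3 still had medians of -0.51, -0.30, -0.52, -0.65 and -0.59 in complexes I to V, and 26 genes were called lower, beside 16.6% of all tested genes.

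**Figure D4:**
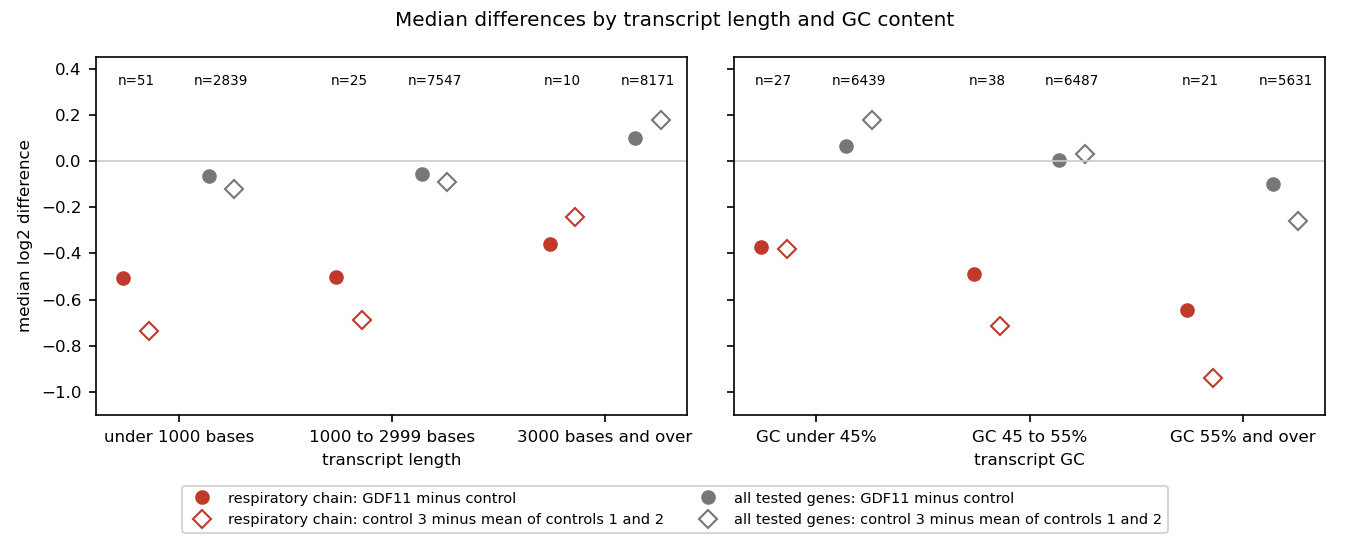
Median log2 differences are drawn by transcript length class (left) and GC class (right), for subunit genes in red and all tested genes in grey; filled circles are GDF11 minus control, and open diamonds control replicate 3 minus the mean of control replicates 1 and 2. The red symbols lie below the grey ones in every class, from -0.24 to -0.94, and reach lowest for the diamond at a GC content of 55% and over.

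Of the 13 subunits encoded in mitochondrial DNA, limma called 0, beside 10.8% lower and 11.7% higher of all tested genes. At an unadjusted p under 0.05, 1 was lower (7.69%), beside 18.7% of all tested genes, and 0 were higher, beside 18.5%. The median difference of the 13 was -0.11. In all 13, control replicate 3 was below both other controls, beside 39.2% of all tested genes, by a median of 0.85 on the log2 scale. In 12 it was below every GDF11 library too, beside 6431 of all 18723 tested genes. MT-ND3, a subunit of complex I, had 15.11, 15.54 and 14.94 in GDF11 replicates 1, 2 and 3, against 16.34, 16.54 and 15.14 in control replicates 1, 2 and 3. It was the exception, with control replicate 3 inside the GDF11 range, and had the lowest difference of the 13 (-0.81). MT-CO1, the catalytic subunit of complex IV, had 18.89, 19.04 and 18.55 in GDF11 replicates 1, 2 and 3, against 18.77, 19.12 and 18.26 in control replicates 1, 2 and 3. So GDF11 values of MT-CO1 were spread through those of the controls.

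Of 67 genes for factors that assemble the complexes, 14 fell (20.9%), beside 10.8% of all tested genes, and 0 rose, beside 11.7%. The 14 were 4 of 18 for complex I, 1 of 4 for complex II, 2 of 9 for complex III, 6 of 31 for complex IV and 1 of 5 for complex V, with median differences of -0.34, -0.46, -0.26, -0.23 and -0.43. FOXRED1 and NDUFAF8, needed for complex I, fell by 0.84 and 0.76 (limma adjusted p = 0.0067 and 0.020). SDHAF1, which helps load iron-sulfur clusters into SDHB, fell by 0.98 (limma adjusted p = 0.0059). BCS1L, which inserts the Rieske protein into complex III, and UQCC3 fell by 0.84 and 0.99 (limma adjusted p = 0.011 and 0.014), as did FMC1, an ATP synthase assembly factor, by 1.00 (limma adjusted p = 0.029).

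For complex IV, COA6, which takes part in copper delivery, fell by 0.89 (limma adjusted p = 0.0068). LRPPRC, which stabilises mitochondrial messenger RNAs, had 13.72, 13.75 and 13.67 in GDF11 replicates 1, 2 and 3, against 14.42, 14.24 and 14.54 in control replicates 1, 2 and 3. It fell by 0.69 (limma adjusted p = 0.012) and control replicate 3 was the highest library, as it was for NDUFS1 and SDHD.

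Of 14 genes for the mobile electron carriers, 5 fell (35.7%), beside 10.8% of all tested genes, and 0 rose, beside 11.7%. All 5 serve ubiquinone, as do all genes of the list but CYCS. COQ8A, a kinase-like protein of ubiquinone synthesis, had 11.35, 11.50 and 11.51 in GDF11 replicates 1, 2 and 3, against 12.49, 12.86 and 12.43 in control replicates 1, 2 and 3. It fell by 1.14 ± 0.16 (limma adjusted p = 0.0015), with control replicate 3 beside the other controls. COQ3, a methyltransferase of the same pathway, fell by 0.80 (limma adjusted p = 0.0056). CYCS, cytochrome c itself, differed by -0.34 ± 0.16 and was not called (limma adjusted p = 0.15).

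Among 13 transcription factors and coactivators known to act on these genes, 2 fell and 2 rose (15.4% each), which is near the 10.8% and 11.7% of all tested genes called lower and higher. PPARGC1A, the coactivator PGC-1alpha that drives mitochondrial biogenesis, had 8.45, 8.34 and 9.26 in GDF11 replicates 1, 2 and 3, against 9.43, 9.40 and 10.20 in control replicates 1, 2 and 3, and fell by 0.99 (limma adjusted p = 0.041). Its nuclear receptor partner ESRRA fell by 0.60 (limma adjusted p = 0.027). The hypoxia-inducible factors EPAS1 and HIF1A rose by 1.22 and 1.26 (limma adjusted p = 0.0026 and 0.018). For PPARGC1A and both hypoxia-inducible factors, control replicate 3 was above the other controls. NRF1, GABPA and YY1, whose motifs were searched above, differed by -0.24, 0.16 and 0.41 and were not called.

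On leaving out each library in turn, the calls of FOXRED1, SDHAF1, COA6, COQ8A, COQ3 and EPAS1 held. Those of NDUFAF8, BCS1L, UQCC3, FMC1, LRPPRC, PPARGC1A, ESRRA and HIF1A were each lost in at least 1 omission, at adjusted p from 0.051 to 0.13 by limma; for PPARGC1A these included the omission of control replicate 3 (-0.73, adjusted p = 0.052). After adjustment for the integrity number, COQ8A, LRPPRC and PPARGC1A were still called, and the other genes of this paragraph were not.

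**Figure D5:**
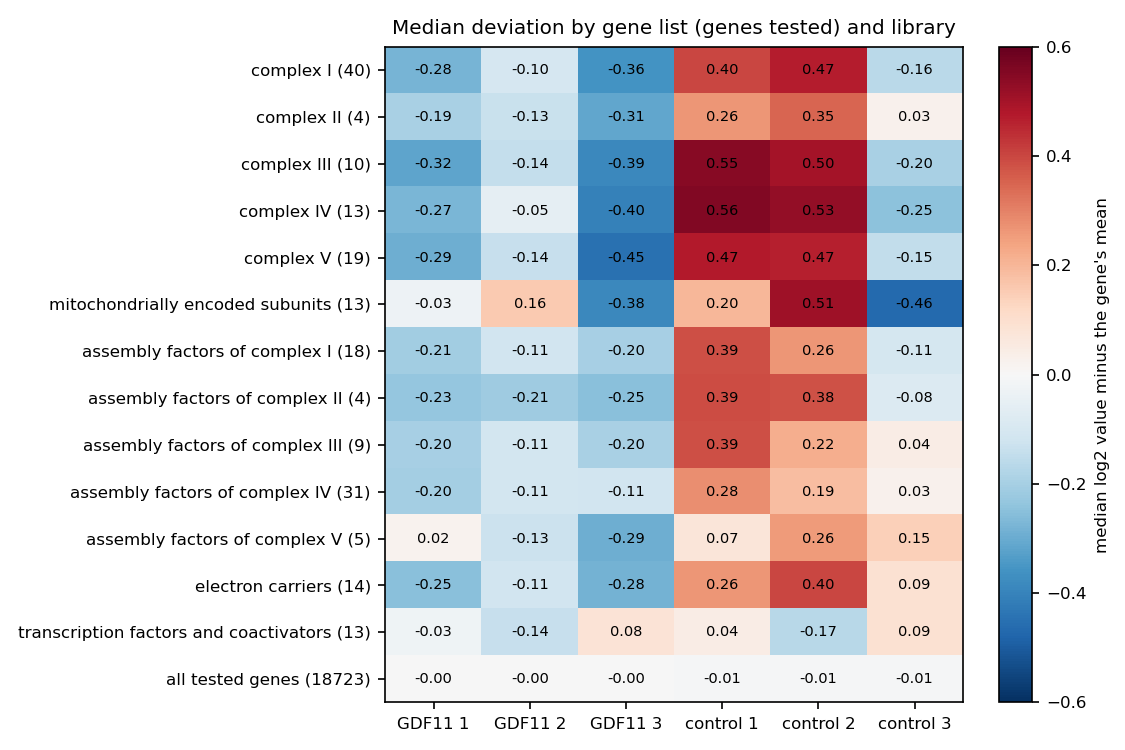
Each cell is the median over the tested genes of a list (number in brackets) of the log2 value minus the gene's mean over the 6 libraries, with red for above and blue for below. Nuclear subunits have control replicates 1 and 2 above 0 and the other 4 libraries at or below it, apart from complex II in control replicate 3 (0.03), while the mitochondrially encoded subunits are lowest in control replicate 3 (-0.46).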

How the data were processed

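Total RNA of 6 HepG2 libraries was sequenced as single reads of 75 bases, per the labels' protocols. The authors deposited log2 values on a variance-stabilised scale for each gene and library. The submitters' processing notes name Trimmomatic, Salmon 1.2.1, DESeq2 and GRCh38, whereas the protocol in the labels has STAR and hg19. Which of them produced the table is not stated in the sources used here. After the curve was inverted, 71.0% to 74.2% of low values (up to 20 reads) were whole reads within 0.01, so no count test was run. Depth limits these genes little, since most lie far above the lowest value.

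Symbols were found for 58349 of 60240 IDs (96.9%) in a name table, and protein-coding status, transcript length and GC content from GENCODE on GRCh37 (99.1% of tested genes). A gene was tested if its mean exceeded the lowest value by 0.5 or more. The two-sided test was limma's (version 3.58.1, R 4.3.3), with moderated variances that follow mean expression, no covariate, and Benjamini-Hochberg adjustment over all tested genes. The same steps were tested on simulated data.

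Members, lists and tests were chosen with earlier results of these data known. Named genes are, per complex, up to 4 called members by lowest p, the 2 extremes of control replicate 3, fixed catalytic members and isoform pairs, and up to 2 called genes per other list and direction. NDUFB10, NDUFA7, NDUFA5, NDUFC2-KCTD14, UQCRH, UQCRHL, COX7B2, COX8C, COX6C, ATP5MC2, ATP5F1C, ATP5PB, ATP5F1E, ATP5MGL, MT-ND3, MT-CO1, CYCS, NRF1, GABPA, YY1 and the motif examples were added once their values were known. 1 gene of the naming rule is not reported here. Alternatives covered filters, normalization, scale, variance prior, library weights, RNA integrity, thresholds, a replicate block and omission of single libraries.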

Additional observations from a re-analysis of the deposited data

How the results depend on the processing

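With all libraries and no covariate 15 subunit genes were called lower and 0 higher (2017 and 2185 of all tested genes). The lower subunit genes numbered 8 with no filter on low values (1729 of all genes) and 1 at an adjusted p under 0.01. There were 31 at an adjusted p under 0.1 (2973 of all genes). Taking out the GC and length trend gave 26 (3087 of all genes). Library weights gave 72, and 1 subunit gene, COX4I2, was called higher (4554 lower and 4473 higher of all genes). Quantile normalization gave 15 lower and 1 higher, ATP5F1E (2215 lower and 2122 higher of all genes). At an adjusted p under 0.01, all genes gave 1170 higher and 791 lower. Leaving out each library in turn gave 1 to 71 lower subunit genes, and 955 to 3993 lower and 1397 to 3647 higher of all genes. The count was 5 without GDF11 replicate 2, 71 without control replicate 3, and 1 without each of the others. The integrity number as covariate left 0 subunit genes (721 lower and 1149 higher of all genes), with medians of 0.0012, -0.21, -0.033, 0.12 and -0.091 for complexes I to V, so those of complexes I and IV changed sign.

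3 alternatives without control replicate 3 were chosen after seeing the data. They gave 70 lower and 1 higher subunit gene with the GC and length trend taken out (4498 and 3661 of all genes), 61 lower and 1 higher with quantile normalization (4036 and 3423), and 0 lower with the integrity number as covariate (87 and 376), where the median over the subunit genes was still -0.55. The cause of these changes was not tested. No named gene called with all libraries changed sign under any of these alternatives.

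For control replicate 3 minus the mean of control replicates 1 and 2, quantile normalization gave medians of -0.088, -0.57, -0.56 and -0.49 in complexes II, III, IV and V, and taking out the GC and length trend gave -0.52 in complex III.

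With the replicate block 53 subunit genes were called lower (3306 of all genes). The deviations of same-numbered libraries correlated at -0.088, 0.375 and 0.478 for replicates 1, 2 and 3. Control replicates 2 and 3 correlated best with the GDF11 library of the same number, but control replicate 1 with GDF11 replicate 2 (0.25). Whether the numbers pair the samples is not settled by these values. Differences near the lowest value, as of COX4I2, are limited by depth.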
